A study of Gallus gallus with 8 samples.

Results

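Actin and myosin genes were followed in chick neural tube cells sorted by whether a reporter of bone morphogenetic protein (BMP) signalling was on or off. The members were taken by gene symbol in the deposited table: myosins, myosin light chains and their kinases, actins, actin-related proteins, tropomyosins, filamins, alpha-actinins, calponins, transgelins, formins, WASF and PDLIM proteins, cofilins, and 6 single genes such as FSCN1 and RDX. This gave 70 genes of 13257 with a symbol, carried by 157 of 38439 probe sets, and the probe set with the highest 8-array mean stood for each gene. MSN, among the 6 single genes sought, was listed under a clone name and so is not a member.

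White Leghorn embryos (Hamburger and Hamilton stage 10 or 11) received 2 plasmids by electroporation at trunk level, a red nuclear protein that marks every electroporated cell (pCAGGS-IRES-H2B-RFP) and a green protein behind a BMP-responsive element (pBRE-tk-EGFP). After 24 h the neural tubes of nearly 30 embryos were pooled and sorted into red cells with green (BRE_active) and red cells without green (BRE_inactive), and this was repeated for 4 pools, giving 4 arrays a group. Both groups come from the same embryos, which received both plasmids, and differ in green signal, not in a treatment. The sort does not tell a red cell whose reporter was off from one without the green plasmid. Each fraction is a mixture of cell types.

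Actin filaments are built from actin monomers by nucleators such as the ARP2/3 complex and the formins, and are bundled, capped and cut by binding proteins. Myosin II, a hexamer of heavy chains with essential and regulatory light chains, pulls on these filaments when its regulatory light chain is phosphorylated, a step set by myosin light chain kinase and other kinases. In the neural tube, apical actomyosin shapes the epithelium, and neural crest cells remodel actin and adhesions as they leave its dorsal side.

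Values are log2 expression, and a difference is BRE_active minus BRE_inactive on that scale with the standard error (SE) of limma's fit over all 38439 probe sets. A gene was called at an adjusted p (Benjamini-Hochberg over all probe sets) under 0.05. Because both fractions of a pool came from the same embryos, a fit with the pool as a block is given where it changed a call and for some other genes. The fits that left out an array or a pool had group as the only term, so they did not use the pairing by pool. In sorted populations, fewer cells of a type and less RNA per cell cannot be told apart.

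Among the cytoskeletal genes, MYH15, TPM1, MYL9 and TAGLN rose in BRE_active cells and TAGLN3 fell. MYH15 encodes a myosin heavy chain of the chick ventricle, TPM1 a tropomyosin that lines actin filaments, MYL9 a regulatory light chain of smooth muscle and non-muscle myosin II, TAGLN the smooth muscle actin-binding protein SM22, and TAGLN3 its relative of neurons. These are 4 of 70 members called higher, beside 1.55% of all genes, and 1 called lower, beside 0.656%. With the pool as a block, 8 members were called higher, beside 4.9% of all genes, and 2 lower, beside 2.56%. Among those added by the block were MYL4, RDX and MYO9A, higher, and MYL1, lower. The counts of lower members lay near the background and say nothing particular about these genes. Members were chosen with earlier results of these data known, so the counts of higher members are a description and no test. The members fall into roles of 2 to 17 genes, so a role without a call also lies near these shares. The median difference over the 70 members was 0.015, beside -0.022 over all genes.

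Not all members were detected by the probe set that represents them, which is the one counted here. The authors' present calls, which mark a probe set whose signal was detected, covered all 8 arrays for 35 members, beside 46.1% of all genes, and no array for 20 members, beside 33.8%. Of these, MYO3A, MYO16, MYH1D and MYLK3 had another probe set that was present on some arrays. The groups did not overlap for 7 members higher in BRE_active cells, beside 4.88% of all genes, and for 4 lower, beside 4.1%. A difference in the same direction in all 4 pools was seen for 15 members that were higher, beside 15.5% of all genes, and 9 that were lower, beside 17.2%. At an unadjusted p under 0.05 stood 19 members, beside 17% of all genes. The number of members called higher was 4 without pool 4 or without its BRE_active array. It was 1 without pool 1 and 0 without pool 2 or pool 3. Leaving out 1 array gave 1 without BRE_active 1, BRE_active 3, BRE_inactive 2 or BRE_inactive 4, and 2 without BRE_active 2, BRE_inactive 1 or BRE_inactive 3. TAGLN3, the 1 member called lower, was not called without pool 1, 2 or 3, and a second member, MYL1, was called without BRE_inactive 2. The count of lower members was also 2 without pool 4 and without BRE_active 4, fits in which MYL1 was not called. The share of all genes called in these leave-out fits is not given here, so their counts say nothing particular about the members.

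**Figure D1:**
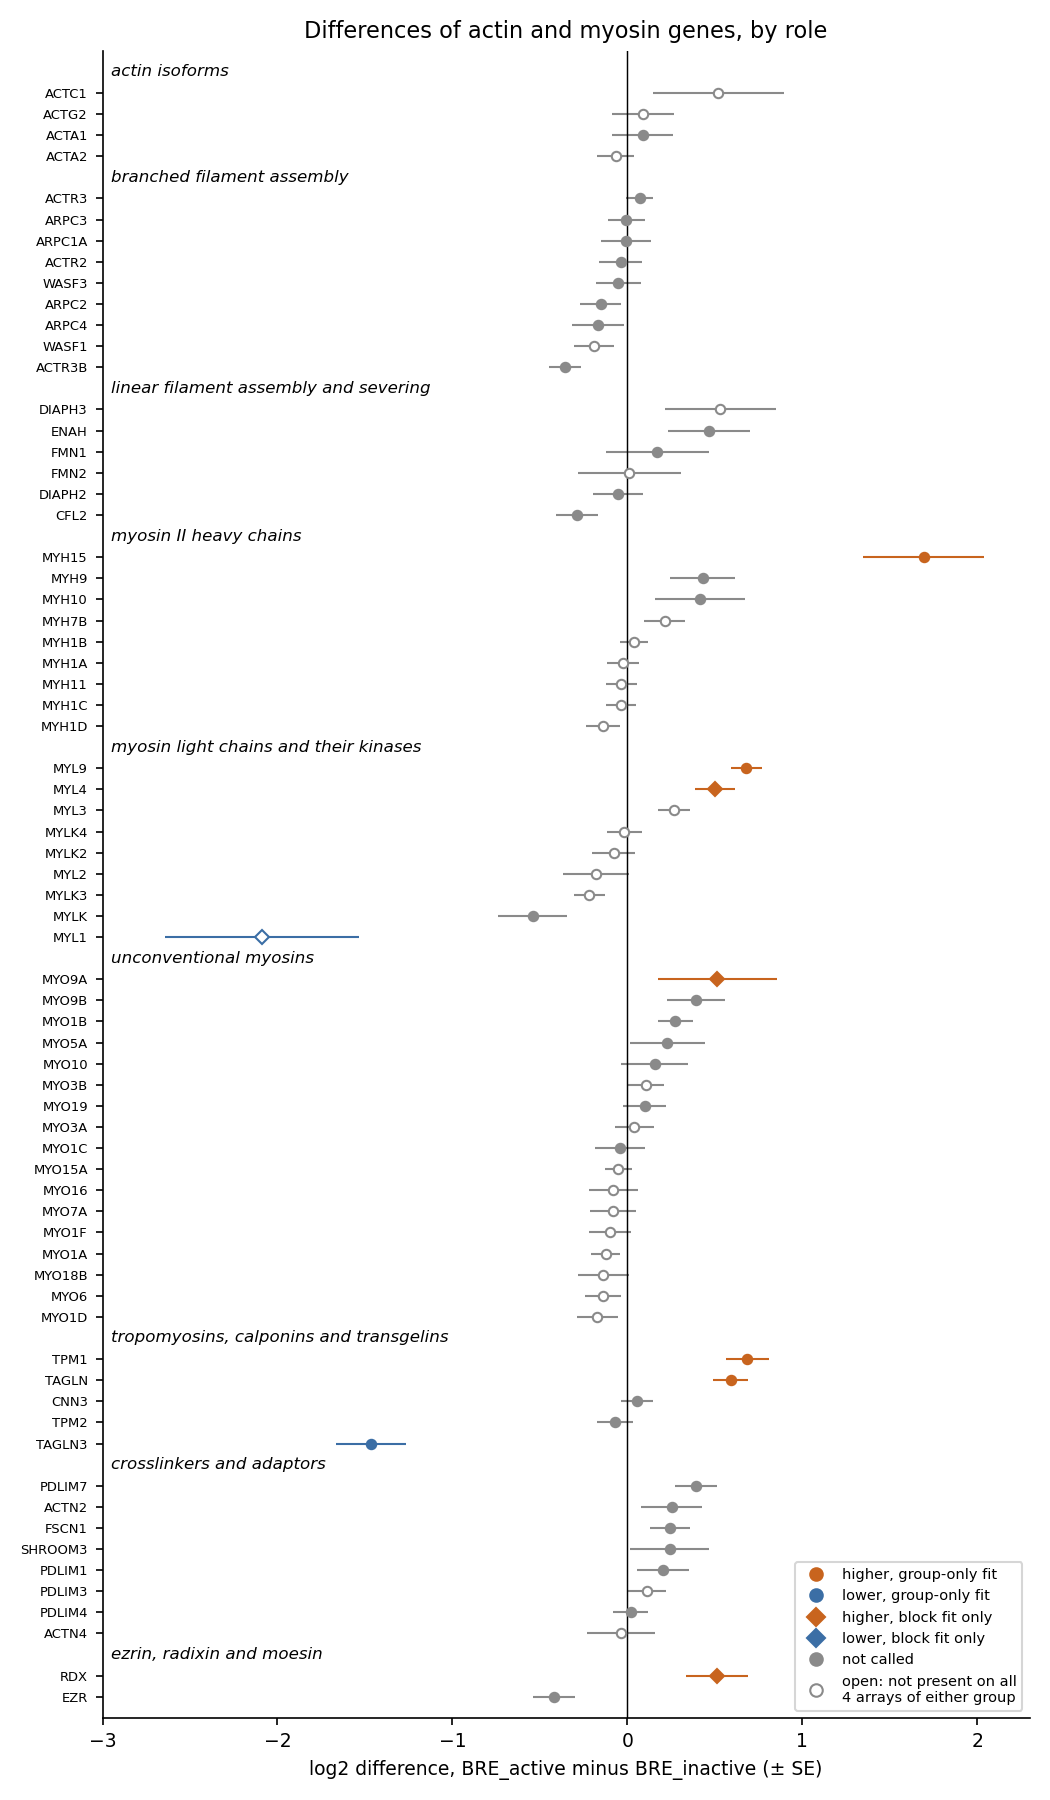
Log2 difference, BRE_active minus BRE_inactive, of the genes reported here (x axis), grouped by role (y axis), with bars of 1 SE from 4 arrays a group. Orange and blue circles were called by the fit on group alone, diamonds only with the pool as a block, grey points by neither, and open points were not present on all 4 arrays of either group. MYH15 lies farthest right at 1.69 and MYL1 farthest left at -2.09, while the 9 genes of branched filament assembly lie between -0.36 and 0.07.

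The chains of myosin II held 1 call among 9 heavy chains and 1 among 9 light chains and kinases, both higher. Of all genes 1.55% were called higher on group alone. At an unadjusted p under 0.05 stood 2 of the heavy chains and 6 of the light chains and kinases, beside 17% of all genes. MYL9 (chromosome 20 in the deposited table) read 9.20, 9.05, 9.02 and 9.02 in BRE_inactive pools 1 to 4 and 9.67, 9.67, 9.75 and 9.93 in BRE_active pools 1 to 4. Every BRE_active array lay above every BRE_inactive array, and BRE_inactive 1 stood above the other three of its group. The difference was 0.68 ± 0.09, a 1.60-fold higher level (adjusted p = 0.00675, and 0.00622 with the block, limma). MYL9 was called in each of the 8 fits that left out 1 array, and was not called without pool 2 (adjusted p = 0.0739) or pool 3 (0.0969).

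MYH15 carries the symbol MYH6 in the deposited table, and its gene ID, on chromosome 1, is that of MYH15 in the RefSeq gene table. It read 3.89, 3.82, 4.35 and 3.70 in BRE_inactive pools 1 to 4 and 6.04, 5.76, 6.27 and 4.46 in the matching BRE_active pools. The groups did not overlap, but BRE_active 4 at 4.46 lay close to BRE_inactive 3 at 4.35. The probe set was present on 1 BRE_inactive array and on all 4 BRE_active arrays. The difference was 1.69 ± 0.34, a 3.23-fold higher level, with an adjusted p of 0.0498 on group alone and 0.00312 with the block (limma). It was not called without BRE_active 1, 2 or 3 (adjusted p = 0.156, 0.162 and 0.162), without BRE_inactive 1, 2, 3 or 4 (0.134, 0.115, 0.0692 and 0.129), or without pool 1, 2 or 3 (0.338, 0.3 and 0.196). The other 2 probe sets with the deposited symbol MYH6 carry the gene ID of MYH1E, another myosin heavy chain gene, and were present on no array.

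The non-muscle heavy chains were not called by the probe sets that represent them. MYH10, which encodes the heavy chain of non-muscle myosin IIB, read 11.37, 11.86, 11.94 and 10.82 in BRE_inactive pools 1 to 4 and 12.10, 12.03, 12.12 and 11.39 in BRE_active pools. It was higher in all 4 pools, yet the groups overlapped, since both arrays of pool 4 were the lowest of their groups, BRE_active 4 well apart. The difference was 0.42 ± 0.26 (adjusted p = 0.506, and 0.0837 with the block, limma). A second MYH10 probe set gave 0.93 ± 0.30 (adjusted p = 0.213) and passed with the block (0.00186), while another, dim one gave -0.10. For MYH9, the heavy chain of non-muscle myosin IIA, the difference was 0.43 ± 0.18 (adjusted p = 0.338), with pool 2 at -0.07 and the other pools between 0.34 and 0.84. MYH11, the smooth muscle heavy chain, differed by -0.03 (adjusted p = 0.896). Of the 9 heavy chains, 5 were present on no array by the probe set that represents them. These were MYH7B and 4 genes of skeletal muscle on chromosome 18 whose RefSeq names are MYH1A, MYH1B, MYH1C and MYH1D, named here after their values were seen. Another MYH1D probe set was present on 2 BRE_inactive arrays and 1 BRE_active array.

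MYL4, an essential light chain of embryonic muscle and atrium, read 10.94, 10.87, 10.69 and 11.01 in BRE_inactive pools 1 to 4 and 11.55, 11.14, 11.34 and 11.48 in BRE_active pools. All BRE_active values exceeded all BRE_inactive values. The difference was 0.50 ± 0.11, with an adjusted p of 0.0736 on group alone and 0.0211 with the block (limma). MYL1, the essential light chain of fast skeletal muscle, was lower and had an SD of 1.36 among the BRE_inactive arrays. Its values were 7.19, 3.96, 5.61 and 4.89 in BRE_inactive pools 1 to 4 and 3.57, 2.92, 3.55 and 3.26 in BRE_active pools. It was present on 3 BRE_inactive arrays and on no BRE_active array, so its level there is only a bound. The group means of 5.41 and 3.33 make it 4.25-fold lower. That fold is a bound with respect to the undetected BRE_active level only. It leaves out the spread between the BRE_inactive arrays, not all of which were present. The difference of -2.09 ± 0.55 had an adjusted p of 0.133 on group alone and 0.0115 with the block (limma). Without BRE_inactive 2 it was -2.57 (adjusted p = 0.0445), and with arrays set to equal medians -2.18 (0.0362). Without BRE_inactive 1, the highest array, it was -1.49 (0.124), and as the mean over its 3 probe sets -0.71 (0.0944). The other 2 MYL1 probe sets gave 0.12 and -0.17 and were present on 1 and 0 arrays.

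MYLK, the kinase that phosphorylates the regulatory light chain, read 9.25, 9.60, 9.68 and 9.42 in BRE_inactive pools 1 to 4 and 9.02, 9.04, 9.37 and 8.36 in BRE_active pools. It was lower in all 4 pools, with overlapping groups, and the difference was -0.54 ± 0.20 (adjusted p = 0.267, and 0.063 with the block, limma). A second MYLK probe set, present on every array, gave -0.18 ± 0.08 (adjusted p = 0.384, and 0.35 with the block). The 5 other light chain and kinase genes differed by -0.22 to 0.27, and none was called by either fit. Of the 9 genes in this role, 4 were present on no array by the probe set that represents them, and another MYLK3 probe set was present on 1 array of each group.

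Among 5 tropomyosins, calponins and transgelins, all present on all 8 arrays, 2 were called higher and 1 lower. Of all genes 1.55% were called higher and 0.656% lower on group alone. The same 3 had an unadjusted p under 0.05, beside 17% of all genes. TPM1 (chromosome 10) read 11.42, 11.28, 11.56 and 11.23 in BRE_inactive pools 1 to 4 and 11.92, 12.18, 12.30 and 11.82 in BRE_active pools. The lowest BRE_active array lay above the highest BRE_inactive array. The difference was 0.69 ± 0.12, a 1.61-fold higher level (adjusted p = 0.0296, and 0.00561 with the block, limma). TPM1 had 8 probe sets, whose differences ranged from 0.47 to 0.72. All 8 had groups that did not overlap, 6 were called on group alone, and 8 with the block. These 8 share the same 8 RNA samples and are not replicates of each other. TPM1 accounts for 6 of the 9 member probe sets called higher, out of 157, where 0.981% of all probe sets were called higher. The call was lost without BRE_active 1, 2 or 3 (adjusted p = 0.0639, 0.112 and 0.0958), without BRE_inactive 1, 2 or 4 (0.081, 0.0787 and 0.0797), and without pool 1, 2 or 3 (0.159, 0.239 and 0.11).

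TAGLN (chromosome 24) read 7.91, 7.69, 7.76 and 7.78 in BRE_inactive pools 1 to 4 and 8.47, 8.17, 8.32 and 8.55 in BRE_active pools. The groups did not overlap, and the 4 pool differences lay between 0.48 and 0.77. The difference was 0.59 ± 0.10, a 1.51-fold higher level (adjusted p = 0.0229, and 0.00762 with the block, limma). The call was lost after quantile normalization (0.51, adjusted p = 0.113) and with arrays set to equal medians (0.50, 0.132). It was also lost without BRE_active 1 or 3 (adjusted p = 0.081 and 0.0716), without BRE_inactive 2, 3 or 4 (0.0631, 0.0626 and 0.0593), and without pool 1, 2 or 3 (0.139, 0.0842 and 0.176).

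TAGLN3 (chromosome 1) went against TAGLN. Its values were 8.56, 9.08, 8.47 and 9.10 in BRE_inactive pools 1 to 4 and 7.11, 7.43, 7.03 and 7.78 in BRE_active pools. The pools kept nearly the same spacing in both groups, with differences between -1.65 and -1.32. The difference was -1.47 ± 0.20, a 2.76-fold lower level (adjusted p = 0.00843, and 0.000156 with the block, limma). TAGLN3 was called in each of the 8 fits that left out 1 array, and was not called without pool 1 (adjusted p = 0.0745), pool 2 (0.0919) or pool 3 (0.0566). CNN3, a calponin that binds actin and is found outside muscle, differed by 0.05 ± 0.09 (adjusted p = 0.828).

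**Figure D2:**
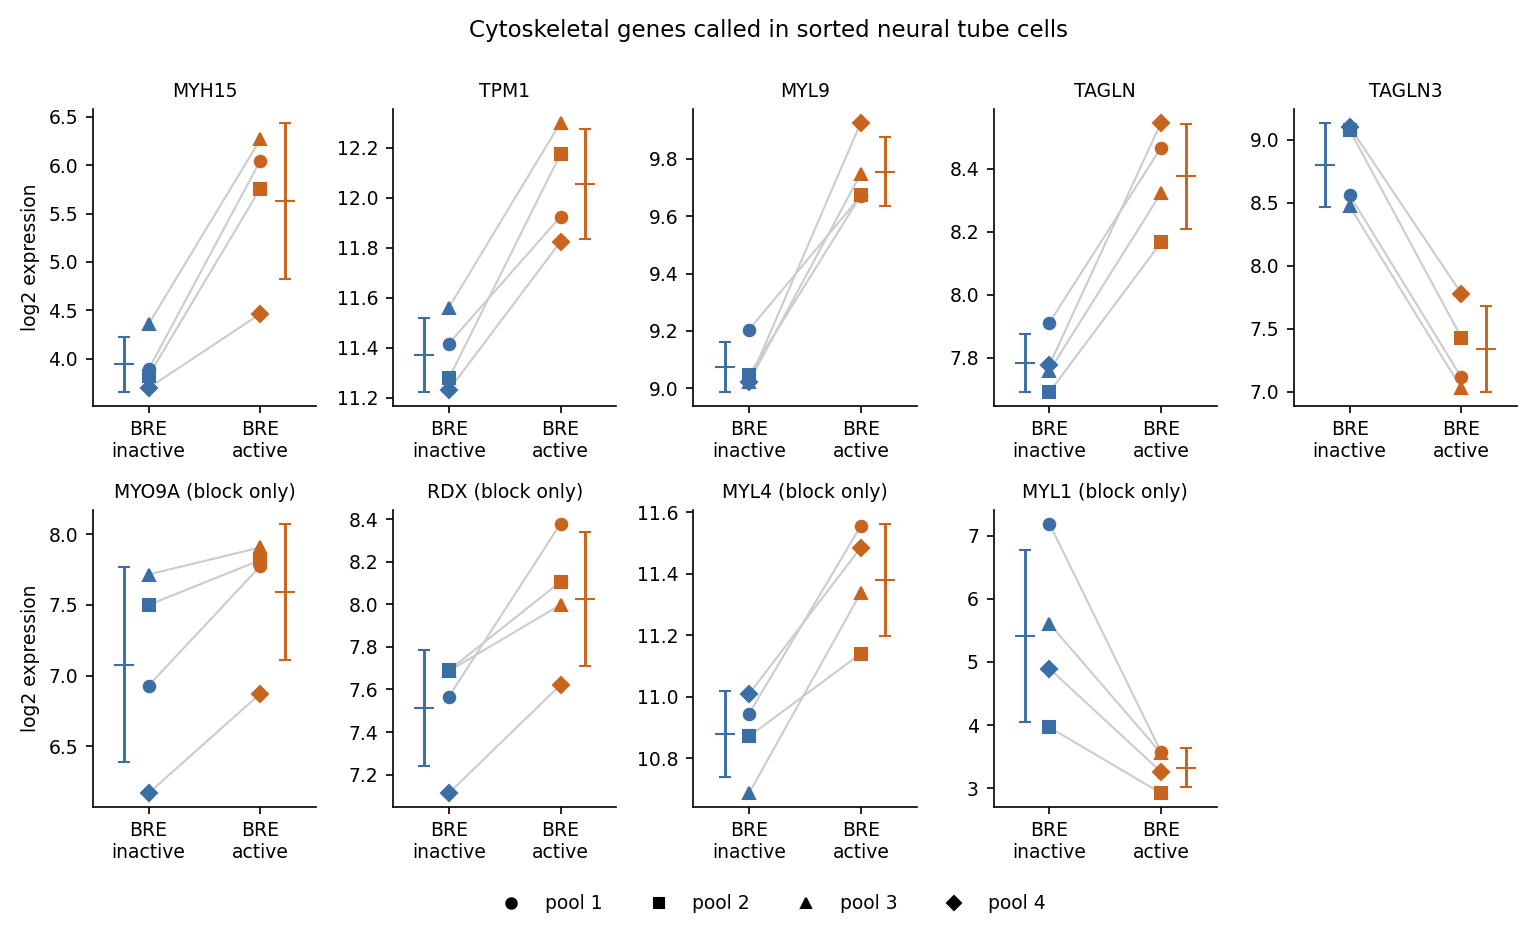
Log2 expression on each array (y axis, scaled per gene) in BRE_inactive and BRE_active cells (x axis), with grey lines joining the arrays of a pool and bars giving the mean ± SD of 4 arrays. The upper row holds the 5 genes called on group alone and the lower row genes called only with the pool as a block. In MYO9A and RDX every line rises while the groups overlap, and in MYL1 the BRE_inactive arrays spread from 3.96 to 7.19.

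The crosslinkers and adaptors held no call on group alone among 9 genes, with 2 at an unadjusted p under 0.05, beside 17% of all genes. Their median difference was 0.24. PDLIM7, an adaptor with PDZ and LIM domains, had groups that did not overlap. It differed by 0.39 ± 0.12 (adjusted p = 0.191, and 0.0711 with the block, limma). That probe set was present on 1 BRE_inactive array and 4 BRE_active arrays. A second PDLIM7 probe set, present on every array, had overlapping groups and gave 0.20 ± 0.10 (adjusted p = 0.402). FSCN1, which bundles filaments in protrusions, differed by 0.24 ± 0.11 (adjusted p = 0.377), SHROOM3, which drives apical constriction, by 0.24 ± 0.23 (0.674), and ACTN4, a non-muscle alpha-actinin, by -0.04 (0.954). A second FSCN1 probe set, present on every array, gave 0.04 ± 0.11 (adjusted p = 0.911). In SHROOM3 the BRE_active 4 array, at 7.73, stood well below the other three of its group.

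Ezrin and radixin, which tie actin to the plasma membrane, had opposite signs. Both had an unadjusted p under 0.05, beside 17% of all genes, and neither was called on group alone. RDX read 7.57, 7.69, 7.69 and 7.11 in BRE_inactive pools 1 to 4 and 8.38, 8.11, 8.0 and 7.62 in BRE_active pools. It was higher in every pool, with BRE_active 4 inside the BRE_inactive range. The difference was 0.51 ± 0.18, with an adjusted p of 0.246 on group alone and 0.0267 with the block (limma), and a second RDX probe set gave 0.17 (block adjusted p = 0.449). RDX was not called with the pool as a random term (adjusted p = 0.105), and the mean over its probe sets gave 0.34. EZR read 5.80, 6.11, 5.63 and 5.99 in BRE_inactive pools and 5.31, 5.58, 5.61 and 5.36 in BRE_active pools. Its groups did not overlap, with the nearest arrays at 5.63 and 5.61, and the difference was -0.42 ± 0.12 (adjusted p = 0.17, and 0.0745 with the block). A second EZR probe set gave -0.60 ± 0.19 (adjusted p = 0.205).

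The unconventional myosins, motors that carry cargo or tether membranes, held no call on group alone among 17 genes. At an unadjusted p under 0.05 stood 2, beside 17% of all genes. MYO9A, a motor with a GTPase-activating domain, was the 1 gene called with the block. It read 6.93, 7.50, 7.72 and 6.17 in BRE_inactive pools 1 to 4 and 7.77, 7.82, 7.91 and 6.87 in BRE_active pools. Both arrays of pool 4 were the lowest of their groups, and the spread between pools was wider than the difference of 0.51 ± 0.34 (adjusted p = 0.536, and 0.0495 with the block, limma). It was not called with the pool as a random term (adjusted p = 0.345), and the difference was 0.21 without BRE_inactive 4 and 0.18 as the mean over its probe sets. Of its 7 probe sets, 2 were called with the block, and 3 were present on no array. MYO10, a motor of filopodia, differed by 0.16 ± 0.19 (adjusted p = 0.756), and MYO5A, a carrier of vesicles, by 0.23 ± 0.22 (0.678). In MYO10, MYO5A and MYO9A the BRE_active 4 array stood apart below the other three. The 14 others differed by -0.17 to 0.39, and 7 of the 17 were present on no array by the probe set that represents them. Other probe sets of MYO3A, on 3 arrays of each group, and of MYO16, on 1 BRE_inactive and 2 BRE_active arrays, were present.

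The member genes of filament assembly held no call by either fit, beside 1.55% of all genes called higher and 0.656% lower on group alone. Of the formins, only those with DIAPH or FMN symbols were members. The formin DAAM2 was called higher and is given with the other actin regulators. Among the 9 genes of branched assembly 1 had an unadjusted p under 0.05, beside 17% of all genes. Their differences ran from -0.36 to 0.07. The ARP2/3 subunit ARPC3 differed by -0.01 ± 0.11 (adjusted p = 0.99, limma) and ARPC4 by -0.17 ± 0.15 (0.659), and BRE_inactive 4 was the high array of its group for ARPC3. The gene at -0.36 was ACTR3B, a paralog of the ACTR3 subunit, named after its values were seen (adjusted p = 0.116, and 0.0724 with the block). Among the 6 genes of linear assembly and severing, 1 had an unadjusted p under 0.05. That was CFL2, a cofilin that severs filaments, at -0.29 ± 0.12 (adjusted p = 0.325). ENAH, which extends filaments at their tips, was higher in all 4 pools by 0.17 to 0.89, and its difference of 0.47 ± 0.23 was not called (adjusted p = 0.42, and 0.0703 with the block).

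The 4 muscle actins showed no call by either fit, and 0 of 4 had an unadjusted p under 0.05, beside 17% of all genes. ACTA1, the skeletal muscle actin, was present on all 8 arrays and differed by 0.09 ± 0.17 (adjusted p = 0.861, limma). ACTC1, the cardiac actin, read 4.63, 4.70, 4.23 and 5.06 in BRE_inactive pools 1 to 4 and 4.00, 5.31, 5.31 and 6.09 in BRE_active pools. It was lower in pool 1 and higher in pools 2 to 4, and the difference of 0.52 ± 0.37 was not called (adjusted p = 0.571). The smooth muscle actins ACTA2 and ACTG2 were present on no array. Muscle actin genes are close in coding sequence, so probe sets may share signal.

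Probe sets of 1 gene disagreed in some genes. TPM2, which the deposited table calls TPM3, had 5 probe sets present on all 8 arrays with differences from -0.38 to 0.34, and the lowest was called with the block (adjusted p = 0.0483, limma). EZR, MYLK and MYH10 each had 1 dim probe set near 0 beside larger differences.

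**Figure D3:**
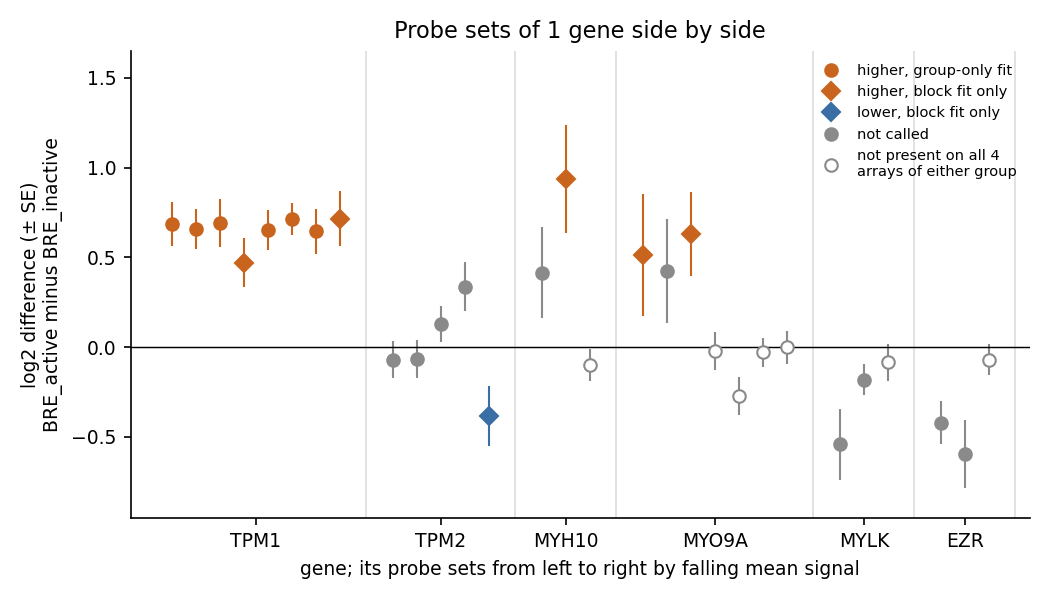
Log2 difference ± SE (y axis) of every probe set of 6 genes, ordered within each gene by falling mean signal (x axis), with colours and shapes as for the plot of differences by role. The 8 TPM1 probe sets lie together between 0.47 and 0.72, whereas the 5 TPM2 probe sets fall on both sides of 0.

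Further genes of the same families are listed in the deposited table under clone or locus names and were found through their gene IDs. They are 23 genes, and 0 were called on group alone (limma), with 6 at an unadjusted p under 0.05, beside 17% of all genes. With the block 1 was called higher and 1 lower, beside 4.91% and 2.55% of all genes. The cytoplasmic actins differed by 0.22 ± 0.08 for ACTB (adjusted p = 0.263) and -0.01 ± 0.12 for ACTG1 (0.984). MYL12A, a non-muscle regulatory light chain, differed by 0.28 ± 0.10 (adjusted p = 0.271), ACTN1 by -0.13 (0.697) and MSN, moesin of the ezrin family, by 0.10 (0.713). FLNC, a filamin of muscle, differed by 0.61 ± 0.16 (adjusted p = 0.13). FLNC was called with the block (0.0324) but not with the pool as a random term (0.0547), and the lower one was MYO5B, present on no array. With these genes added, and MYH1E counted apart from MYH15, 94 family genes held the same counts of 4 higher and 1 lower.

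Actin regulators that are not members were taken from 4 lists, chosen with earlier results of these data known. The counts are therefore a description and no test of the lists. Of the 186 regulators, 11 were called higher and 0 lower (limma), beside 1.55% and 0.657% of all genes. At an unadjusted p under 0.05 in either direction stood 48, beside 17% of all genes. With the block 24 were called higher and 4 lower, beside 4.91% and 2.55% of all genes, and the lower count lay near that share. Values are given below for 8 of the 11. Of 31 effector kinases and myosin phosphatase genes 0 were called, with 6 at an unadjusted p under 0.05, near the share of all genes. With the block 1 was called in each direction. Of 76 other actin regulators 7 were called higher.

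DLC1, a GTPase-activating protein, had the largest difference of these 8. It read 6.12, 5.88, 6.34 and 5.65 in BRE_inactive pools 1 to 4 and 8.40, 7.97, 8.02 and 7.90 in BRE_active pools. The gap between the groups exceeded the range of either, and the difference was 2.07 ± 0.16, a 4.21-fold higher level (adjusted p = 0.00053, limma). It was called in all 12 fits that left out an array or a pool.

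ROCK1 and ROCK2, kinases that raise myosin light chain phosphorylation, differed by 0.37 ± 0.23 (adjusted p = 0.512, limma) and 0.35 ± 0.21 (0.503). ROCK2 was higher in 2 pools only, and its other probe sets gave -0.17, -0.10 and -0.18. The one at -0.17 was present on 2 BRE_inactive arrays and 1 BRE_active array, and the others on no array. In ROCK1 the BRE_active 4 array stood below the other three of its group, and BRE_inactive 3 stood above its own.

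Adhesion and filament-binding proteins made up most of the other 7. VCL, the vinculin that couples actin to adhesions, read 5.74, 5.86, 5.76 and 5.52 in BRE_inactive pools 1 to 4 and 6.61, 6.45, 6.70 and 6.66 in BRE_active pools, a difference of 0.88 ± 0.10 (adjusted p = 0.00312, limma). CALD1, the caldesmon that binds actin and myosin, read 6.52, 6.52, 7.23 and 6.77 against 7.94, 8.31, 8.36 and 7.99, a difference of 1.39 ± 0.17 (adjusted p = 0.00548). In both genes every BRE_active array lay above every BRE_inactive array. ZYX, the LIM protein zyxin of adhesions and stress fibres, rose by 0.99 ± 0.14 (adjusted p = 0.00966) and LIMA1, which stabilises filaments, by 0.67 ± 0.08 (0.0055). A second LIMA1 probe set, present on every array, gave 0.24 ± 0.12 and was not called (adjusted p = 0.429, and 0.341 with the block). NEXN, a filament-binding protein, rose by 1.41 ± 0.22 (0.0141) and DAAM2, a formin linked to Wnt signalling, by 1.61 ± 0.26 (0.017). LASP1, the 7th by p and outside the rule for named genes, rose by 0.66 ± 0.13 (0.0398). SRF, a transcription factor that drives many actin genes, differed by 0.33 ± 0.15 (adjusted p = 0.376), and the intermediate filament gene VIM by -0.11 (0.572). With the block the adjusted p was 0.00285 for VCL, 0.000636 for CALD1 and 0.000509 for ZYX (limma). It was 0.00474 for LIMA1, 0.00404 for NEXN and 0.000289 for DAAM2.

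The count of 11 was 1, 2 and 3 without pools 1, 2 and 3 and 20 without pool 4. It was 7, 5 and 6 without BRE_active 1, 2 and 3, 19 without BRE_active 4, and 8 to 10 without a BRE_inactive array. The share of all genes called in these fits is not given here, so the counts have no background beside them. VCL was not called without pool 1 (adjusted p = 0.0512) or pool 3 (0.0549), CALD1 without pool 1 (0.052) or pool 2 (0.0739), and LIMA1 without pool 1 (0.0741) or pool 2 (0.0725). ZYX was not called without pool 1 (0.0936), pool 2 (0.109) or pool 3 (0.0692). NEXN and DAAM2 were not called without pool 1, 2 or 3, with adjusted p-values of 0.0683 to 0.159. NEXN was also lost without BRE_active 2 (0.0619), and DAAM2 without BRE_active 1, 2 or 3 (0.0636, 0.0705 and 0.0713). LASP1 was called without pool 4, BRE_active 4 or BRE_inactive 4 and in no other fit that left out an array or a pool (adjusted p = 0.0514 to 0.232). As the mean over all probe sets of a gene, undetected ones included, the difference was 1.05 for DLC1 (0.000272), 0.69 for DAAM2 (0.00899) and 0.42 for VCL (0.0289), all called, and 0.30 for LASP1 (0.066), not called.

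**Figure D4:**
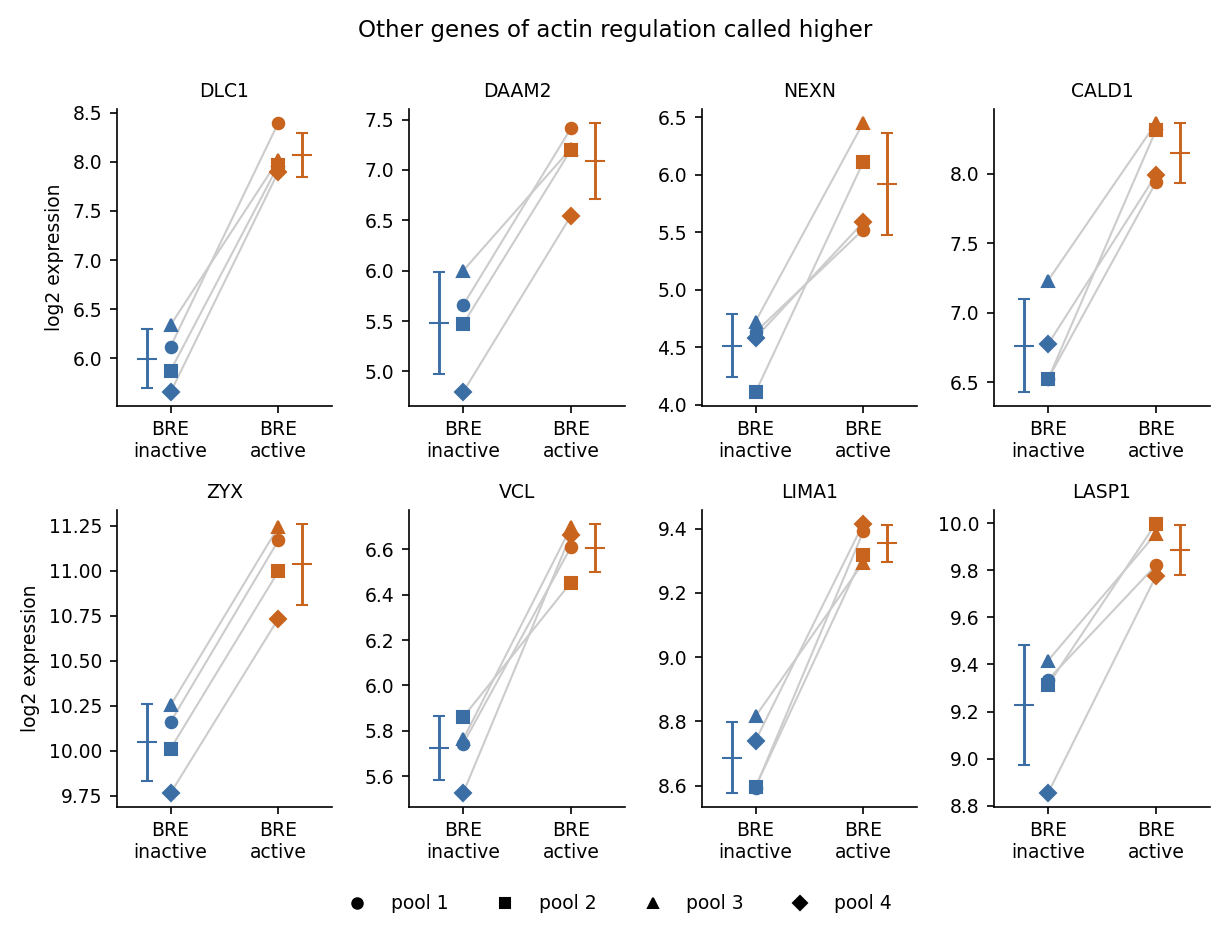
Log2 expression on each array (y axis, scaled per gene) of 8 actin regulators called higher, in BRE_inactive and BRE_active cells (x axis), with grey lines joining the arrays of a pool and bars giving the mean ± SD of 4 arrays. Every line rises, and the groups do not overlap in any of the 8 panels; DLC1 shows the widest gap, 2.07.

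Markers of cell types differed between the same arrays, and their part in the cytoskeletal differences was not tested. Neural progenitor markers were present on all 8 arrays for 8 of 9 genes, so the labelled neuroepithelial identity had its markers in both groups. Their list mean was lower in BRE_active cells, at 9.18 to 9.78 in BRE_inactive and 8.69 to 8.95 in BRE_active cells. Of the 9, 2 were called lower on group alone and 5 with the block. Neural crest markers had a list mean of 6.47 to 7.35 in BRE_inactive and 8.0 to 8.73 in BRE_active cells, and 9 of 13 were called higher. Neuron markers had list means of 6.89 to 7.52 and 6.46 to 6.71, and 3 of 9 were called lower. TAGLN3 fell beside both the progenitor and the neuron list. Endothelial markers had list means of 4.87 to 5.24 and 4.98 to 5.83, with 1 of 8 called, SOX18, higher. Somite and mesoderm markers had list means of 5.27 to 5.70 and 4.91 to 6.26, with 0 of 13 called and 1 at an unadjusted p under 0.05 (limma). Both of the last lists were lower in BRE_active pool 1 than in BRE_inactive pool 1 and higher in the other pools, as was ACTC1. The mean of the muscle list, given next, had the same sign as these in every pool.

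Muscle markers were near the floor. Their list means were 4.32 to 4.52 in BRE_inactive and 4.38 to 4.75 in BRE_active cells, and 13 of 16, MYOD1, MYF5, MYOG, DES and TTN among them, were present on no array by the probe set used. CASQ2 was the 1 muscle marker called higher. Red blood cell markers, which are no part of the neural tube, were lower in all 4 pools for 8 of 8 genes, beside 17.2% of all genes. Of these, 5 were called lower on group alone. Their list mean was 11.99, 10.25, 11.55 and 10.97 in BRE_inactive pools 1 to 4 and 6.50, 7.24, 8.15 and 9.06 in BRE_active pools. The order of the 4 BRE_inactive pools was the same for MYL1 as for this list, with pool 1 highest and pool 2 lowest. The orders differed in BRE_active cells, where MYL1 was present on no array. There pool 1 was the lowest for the list and the highest for MYL1.

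**Figure D5:**
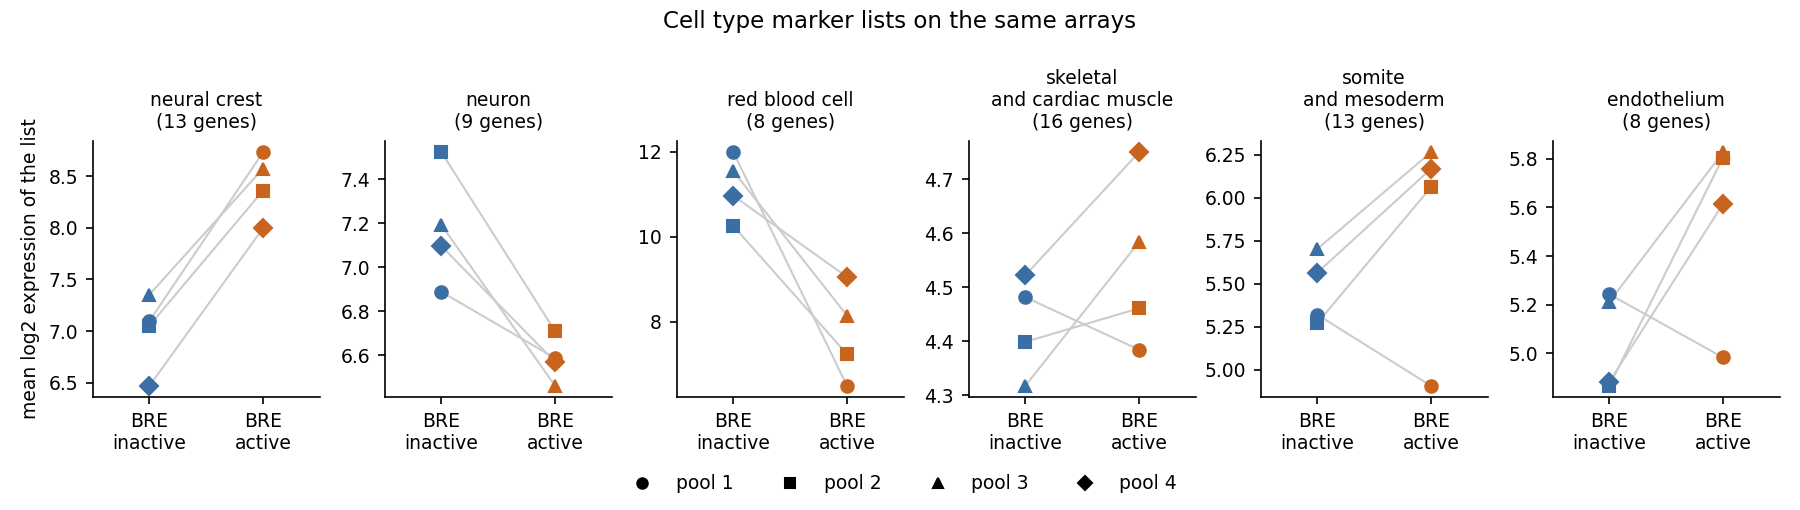
Mean log2 expression of 6 marker lists on each array (y axis, scaled per list) in BRE_inactive and BRE_active cells (x axis), with grey lines joining the arrays of a pool. Neural crest markers rise and neuron and red blood cell markers drop in every pool, whereas the muscle list stays between 4.32 and 4.75.

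The gap between 3′ and 5′ control probe sets of ACTB, EEF1A1 and GAPDH, often read as a sign of RNA integrity, also differed between arrays. The labels give minimum counts of 100000 red and 20000 green cells, and the part of cell number in this gap was not tested. The mean gap over the 3 genes was 2.72, 2.59, 2.84 and 2.18 in BRE_inactive pools 1 to 4 and 2.83, 3.20, 3.24 and 2.39 in BRE_active pools. In each of the 4 pools the BRE_active gap exceeded the BRE_inactive gap, on average by 0.335, and the gap was smallest in pool 4 of each group. The ACTB gap alone was larger in BRE_active cells in 2 of 4 pools. The part of this gap in the differences reported here was not tested.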

How the data were processed

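RNA from 8 sorted cell pools was labelled with biotin and hybridised to Affymetrix chicken arrays, per the labels' protocols. For every probe set the authors deposited 8 log2 values (1 an array), group means, the difference with an adjusted p-value, and per group how many arrays carried a present call. Their background correction, normalization and present caller were not stated in the labels or headers. The 8 columns of detection letters per array were not used. A second deposited set of log2 values differed by at most 5.0e-09, and the deposited adjusted p-values were obtained again within 6.13e-13. Array medians lay between 4.24 and 4.32, and arrays correlated between 0.974 and 0.996. The number of arrays limits the precision.

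From the 38535 probe sets 96 Affymetrix controls were left out, and limma 3.58.1 (R 4.3.3) was fitted to the other 38439 with lmFit and eBayes on group alone, two-sided, with Benjamini-Hochberg adjustment and a threshold of 0.05, a procedure tested on simulated data. The fit with the pool as a block was the alternative. The labels give both fractions of a pool from the same embryos, so pools pair the arrays by design, and the paired arrays' deviations from the mean of their group had correlations of -0.141, 0.203, 0.498 and 0.584. Pools are separate sets of embryos.

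Symbols in the table are old. Of the 70 members 66 matched the RefSeq gene table (assembly GRCg7b) by gene ID, and 7 have another symbol there, which the text uses: DIAPH2 for DIAPH1, MYH1A for MYH1, MYH1C for MYH2, MYH1B for MYH3, MYH1D for MYH4, MYH15 for MYH6 and TPM2 for TPM3. No genome build is stated for the table, so no coordinates are printed. Lists were matched by updated symbol.

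Named members were those called by either fit, the 2 with the highest mean in each role, and a fixed set of genes. Other actin regulators were named if called, up to 6 a list, with 12 in any case. Members and lists were chosen with earlier results of these data known. Alternatives were quantile and equal-median scaling, a random pool block, a trend and robust prior, a filter on present calls, other choices of probe set and gene name, the series matrix values, leaving out each array or pool, and adjustment over 1 probe set per gene. The planned search for motifs in promoters was not run, since no promoter sequences were used here. Some named genes and a gene list are not reported here, although counts over all members and lists include them.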

Additional observations from a re-analysis of the deposited data

Results flagged for a closer look

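Among 80 groups of 4 arrays, 9 had 1 array far from the other three, with a gap to the nearest of them above Dixon's critical value. Chance alone flags about 1 group in 20. In 6 of the 9 the outlying array was BRE_active 4, at the low end. It read 11.4 for MYH10, 7.91 for MYO10, 8.16 for MYO5A, 6.87 for MYO9A, 7.73 for SHROOM3 and 9.05 for ROCK1. The same array had the smallest 3′ to 5′ gap of the control probe sets among BRE_active arrays, 2.39, and the part of that gap in these values was not tested. The other 3 were high BRE_inactive arrays: BRE_inactive 4 read 11.2 for ARPC3, BRE_inactive 1 read 9.20 for MYL9 and BRE_inactive 3 read 9.83 for ROCK1.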

How the results depend on the processing

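No difference of a gene called on group alone changed direction under the alternatives run for it, while the median difference over members, which is near 0, changed sign with equal medians. With the pool as a fixed block (replicate block), 8 members were called higher and 2 lower, in place of 4 and 1, and 24 other genes of actin regulation higher and 4 lower, in place of 11 and 0. With the pool as a random term the members called were 6 and 2. Arrays set to equal medians gave 3 and 2 members and 1 lower gene among the other regulators, so the split of member calls moved from 4 to 1 to 3 to 2. Leaving out an array or a pool gave 0 to 4 members higher and 0 to 2 lower, and 1 to 20 other regulators higher and 0 to 1 lower. Shares of all genes are given only for the 8-array fits on group alone and with the fixed block. The other counts therefore have no background beside them. The median difference over members, 0.015, was -0.0766 with equal medians, 0.163 over probe sets present on all 4 arrays of a group, and 0.00514 to 0.0581 with an array or pool left out. The median over all genes is not given for these settings, so they show no shift of the members against other genes. Fits with a pool left out rest on 6 arrays. The cause of the other changes was not tested. Adjustment over 1 probe set per gene, chosen after seeing the data, gave 4 and 1 members and 12 and 0 other regulators. The probe set that represents the gene was present on no array for 20 of the 70 members, so these differences are of undetected signal. The block changed no other call of a gene named in the report than those given there.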
